A study of Mus musculus with 8 samples.

Results

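The neural genes described here are 39 genes that are commonly read as signs of nerve cell development, followed in mouse embryonic stem cells (ESCs) depleted of members of the HIRA complex. They were taken by symbol from the deposited count tables, which list 55418 genes, and all 39 were found. The 14 progenitor genes are active in dividing neural precursors or direct them to become neurons, and the 25 neuron genes encode the cytoskeleton, synapse, adhesion and RNA-binding proteins of neurons themselves. Of the 39, 30 had enough reads to be tested in every comparison, 2 in some of them and 7 in none.

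The study depleted Hira, Ubn1 or Ubn2 from E14 ESCs, a mouse ESC line (strain 12910la in the labels), grown on gelatin in medium with serum and LIF, the cytokine that keeps ESCs undifferentiated. Cells received a pSuper puro plasmid that expresses a short hairpin RNA (shRNA), puromycin then removed untransfected cells for 3 days, and messenger RNA was sequenced. The 4 conditions were control cells, which the labels call wild type and which the study's methods describe as receiving an shRNA against luciferase, and Hira_KD, Ubn1_KD and Ubn2_KD cells, each with 2 libraries. No differentiation was induced, so every library came from cells kept under ESC conditions, and which of the hairpins designed for each gene was used for sequencing is not given in the sources used here. Nothing in the labels says that the 2 libraries of a condition came from separate cultures, so the p-values measure the spread between these libraries, which may be technical.

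HIRA is a histone chaperone complex that places a variant of histone H3 into chromatin outside DNA replication. Hira is its scaffold, and Ubn1 and Ubn2 are related subunits that hold the histone. In development, SOX, ZIC and basic helix-loop-helix factors set up neural progenitors, which carry the filament protein nestin and signal to each other through Notch ligands; as neurons form, neurofilaments, neuronal tubulin, stathmins, axonal adhesion molecules and synaptic vesicle proteins take over. Outside neurons many of the latter genes are held down by the repressor REST.

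Reads on genes totalled from 19710040 to 32706053 per library, with a median of 21848236. Expression is given as CPM, the counts of a gene scaled to the library's total with TMM factors, and 3 counts, taken here as the limit of detection, were worth between 0.0908 and 0.153 CPM. Hira lay at 89.4 and 97.6 CPM in control and 10.0 and 10.4 CPM in Hira_KD libraries, Ubn1 at 53.0 and 44.1 and 23.8 and 23.8 CPM in control and Ubn1_KD libraries, and Ubn2 at 50.1 and 51.7 and 30.1 and 24.6 CPM in control and Ubn2_KD libraries. The labelled target was thus lower in both libraries of its own depletion, with log2 fold changes of -3.22, -1.03 and -0.90. The summed level of 10 ESC markers, Pou5f1, Sox2 and Nanog among them, was 6894 to 7178 CPM in control libraries. It was 6237 to 6398 in Hira_KD, 6234 to 6336 in Ubn1_KD and 5942 to 6117 in Ubn2_KD libraries. The cells thus carried the markers of the labelled cell type in all conditions, though every depleted library summed to less than both controls. By the limits given below, 2 of the 10 fell and 1 rose after Ubn2 depletion, against 8.75% and 9.59% of all genes. None was called after Hira or Ubn1 depletion. Muscle genes stood out in Ubn2_KD libraries, where 8 of them summed to 188 to 292 CPM against 30.4 to 30.7 CPM in control, and trophoblast genes in Hira_KD libraries, where 7 summed to 113 to 138 CPM against 71.2 to 71.9 CPM.

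After Hira depletion the neural genes that changed were mostly higher, and after Ubn2 depletion the neuron genes that changed were mostly lower. Genes were tested with edgeR's quasi-likelihood method and Benjamini-Hochberg adjustment, and a gene was called changed when its adjusted p was under 0.05 and its fold exceeded 1.5. After Hira depletion 14 of 32 tested members rose and 1 fell, against 10.8% of all tested genes called higher and 5.4% called lower. After Ubn2 depletion 3 of 30 rose and 10 fell, against 9.59% and 8.75% of all genes. After Ubn1 depletion 2 of 30 rose and 3 fell, against 1.53% and 1.56% of all genes. In bulk RNA, more or fewer cells of a type and more or less RNA per cell cannot be told apart.

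Progenitor and neuron genes were counted apart. Of the progenitor genes, 4 of 9 tested rose after Hira depletion, 2 of 8 rose and 1 fell after Ubn2 depletion, and 1 of 8 rose and 2 fell after Ubn1 depletion. The median log2 fold change of the progenitor genes tested was 0.46 after Hira, 0.25 after Ubn2 and -0.39 after Ubn1 depletion. Without a filter on low counts the Ubn2 median turned to -0.29, since weakly expressed members then entered it. Of the neuron genes, 10 of 23 tested rose and 1 fell after Hira depletion, 1 of 22 rose and 9 fell after Ubn2 depletion, and 1 of 22 rose and 1 fell after Ubn1 depletion. Their median was 0.58, -0.39 and -0.18 in the same order. The median of all genes tested lay at 0.01, 0.00 and 0.00. The 2 members tested in some comparisons only, Zic1 and Snap25, passed the filter only where the Hira_KD libraries took part, and 7 members passed nowhere. Over the 30 members tested in every comparison, 14 rose after Hira depletion, and the Hira medians were 0.57 over 8 progenitor and 0.43 over 22 neuron genes. The difference between the lists was not tested.

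**Figure D1:**
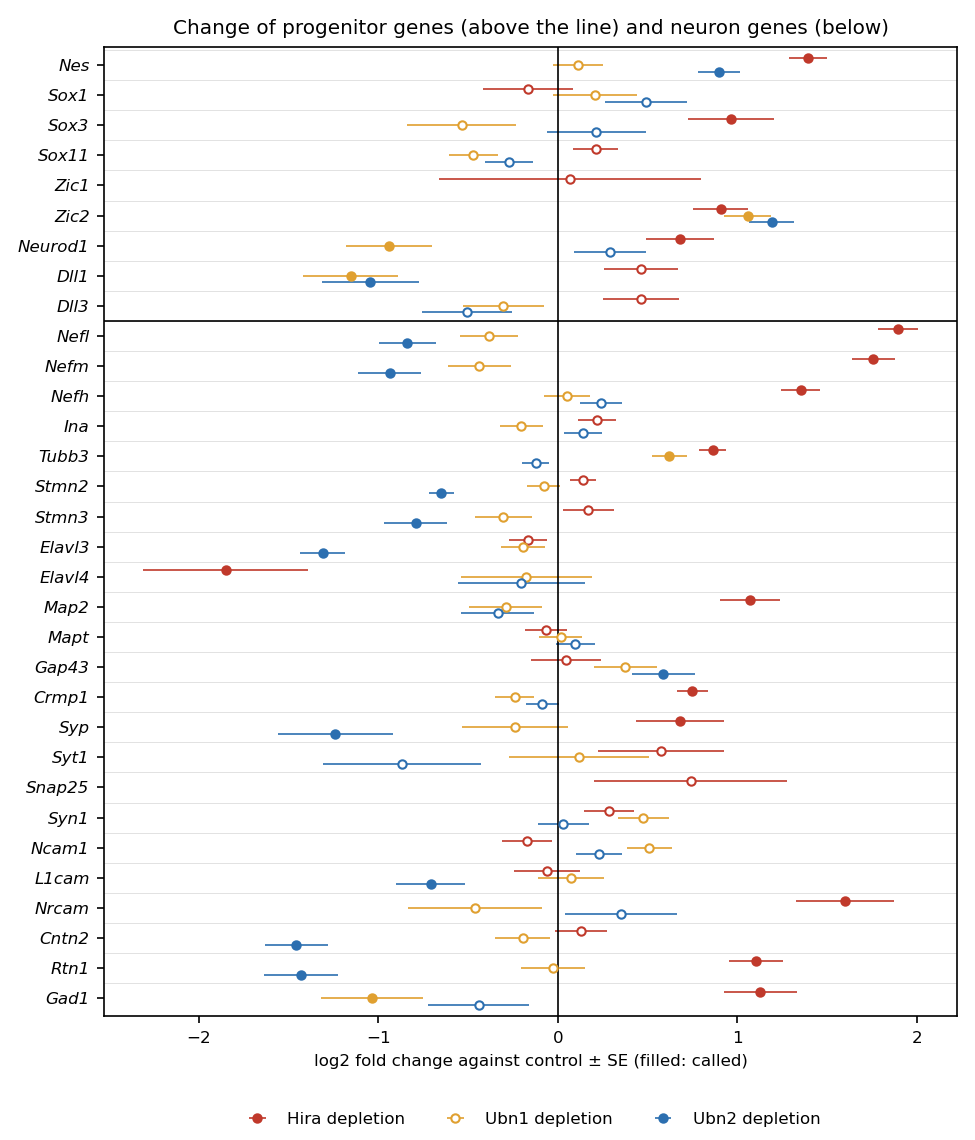
Log2 fold change against control (horizontal axis, ± SE) of the 32 tested members after Hira (red), Ubn1 (yellow) and Ubn2 (blue) depletion, with progenitor genes above the line and neuron genes under it. Filled points were called, and Nefl, Nefm, Syp and Rtn1 have a filled red point on the right and a filled blue point on the left.

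The members that were not tested were close to silent. Dcx, which encodes the microtubule protein doublecortin of migrating neuroblasts, had 0 counts in all 8 libraries, so its level stayed under the detection limit given above. The proneural factors Neurog1 and Neurog2, the Notch target Hes5, the lipid carrier of radial glia Fabp7 and the stathmin Stmn4 had at most 6 counts in any library. Pou3f2, a POU factor of neural precursors, had 4 and 5 counts in control, 9 and 11 in Hira_KD, 2 and 1 in Ubn1_KD and 0 and 0 in Ubn2_KD libraries, which is too few for a test. Among the members that were expressed, levels spanned a wide range. Per kilobase of annotated exon, Stmn2 and Tubb3 had the highest mean levels in control cells, at 51.1 and 47.6 CPM per kilobase, followed by Stmn3 at 11.1 and Ina at 8.64. Of the members tested in every comparison, Nrcam lay lowest at 0.129, then Syt1 at 0.15 and Elavl4 at 0.287. Zic1 and Snap25, tested in some comparisons only, lay lower still, at 0.0578 and 0.0674.

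**Figure D2:**
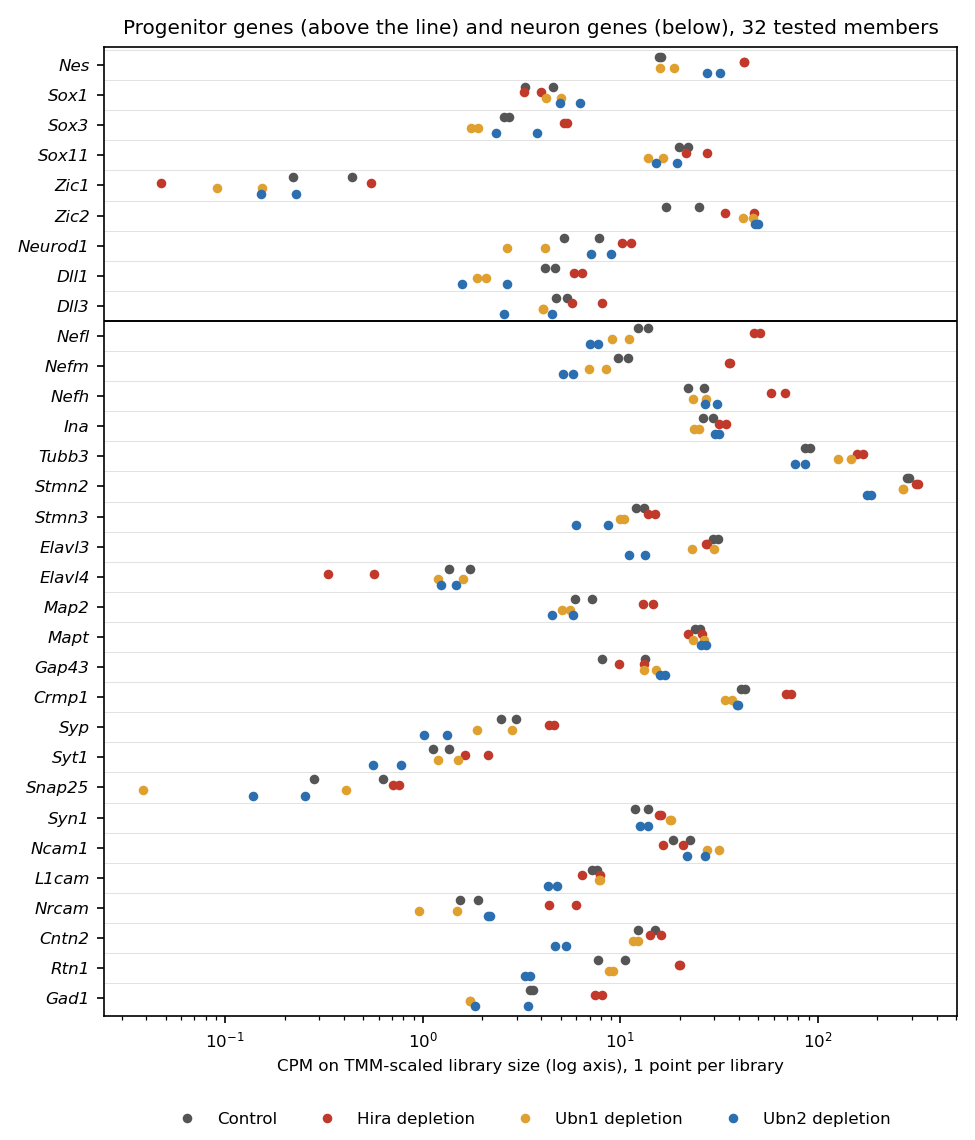
CPM on TMM-scaled library sizes (log axis) of the 32 tested members, 1 point per library, for control (grey), Hira_KD (red), Ubn1_KD (yellow) and Ubn2_KD (blue). Most neuron genes with separated colours have the red points to the right, and for Elavl3, Cntn2, Stmn2 and Rtn1 the blue points lie to the left of all others.

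The starts of some of the genes that carried these patterns are shown from RefSeq (build GRCm38.p6), which gave a window from 250 bases before to 50 bases after a transcript start for 28 of the 39 members, 38 windows in all. No window was given for Nefl, Nefm, Nefh, Sox3, Zic2, Stmn2, Stmn4, Mapt, Gap43, Snap25 or Ncam1. Rtn1 and Syp are shown because they moved in opposite directions after Hira and Ubn2 depletion, Elavl3 and Cntn2 because they fell after Ubn2 depletion and were not called after Hira depletion, and Syn1 because it was the member whose window held the left part of the REST element. Capitals mark the motifs searched on both strands, which were the left part of the REST element, spelled TTCAGCACC, the E-box of proneural factors, spelled CAGCTG, the GC box of Sp factors, spelled GGGCGG, the box of the TATA-binding protein, spelled TATAAA, and the CCAAT box of nuclear factor Y, spelled by its name. The Rtn1 window is the richest in CG of its 3 windows and lies inside the gene, at chr12:72236678-72236977 on the minus strand, Syp is at chrX:7638330-7638629 on the plus strand, and Elavl3 at chr9:22051974-22052273, Cntn2 at chr1:132542891-132543190 and Syn1 at chrX:20920869-20921168 are on the minus strand, each printed 5′ to 3′ along its transcript.
Rtn1: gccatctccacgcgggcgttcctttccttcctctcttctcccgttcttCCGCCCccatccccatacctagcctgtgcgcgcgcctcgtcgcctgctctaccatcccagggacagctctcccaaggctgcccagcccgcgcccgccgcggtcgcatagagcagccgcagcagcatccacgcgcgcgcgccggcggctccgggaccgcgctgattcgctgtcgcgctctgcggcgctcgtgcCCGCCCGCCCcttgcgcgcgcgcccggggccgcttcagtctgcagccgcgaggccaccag
Syp: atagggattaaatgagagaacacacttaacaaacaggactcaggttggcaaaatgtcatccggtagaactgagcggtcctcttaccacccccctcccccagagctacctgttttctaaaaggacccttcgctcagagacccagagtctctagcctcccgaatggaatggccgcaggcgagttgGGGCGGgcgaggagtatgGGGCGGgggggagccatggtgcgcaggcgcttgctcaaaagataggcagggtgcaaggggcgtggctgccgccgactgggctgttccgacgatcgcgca
Elavl3: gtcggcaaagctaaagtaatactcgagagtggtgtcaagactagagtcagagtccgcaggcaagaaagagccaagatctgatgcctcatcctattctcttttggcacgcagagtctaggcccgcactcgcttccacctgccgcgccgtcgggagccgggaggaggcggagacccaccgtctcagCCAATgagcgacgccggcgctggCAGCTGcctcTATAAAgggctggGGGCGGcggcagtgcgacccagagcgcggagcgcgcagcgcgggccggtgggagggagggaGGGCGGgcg
Cntn2: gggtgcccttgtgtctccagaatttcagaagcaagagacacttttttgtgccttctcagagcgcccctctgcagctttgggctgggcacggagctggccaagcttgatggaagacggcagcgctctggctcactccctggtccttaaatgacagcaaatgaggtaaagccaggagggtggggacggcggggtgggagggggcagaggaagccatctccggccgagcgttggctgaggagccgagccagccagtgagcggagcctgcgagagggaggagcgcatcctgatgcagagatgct
Syn1: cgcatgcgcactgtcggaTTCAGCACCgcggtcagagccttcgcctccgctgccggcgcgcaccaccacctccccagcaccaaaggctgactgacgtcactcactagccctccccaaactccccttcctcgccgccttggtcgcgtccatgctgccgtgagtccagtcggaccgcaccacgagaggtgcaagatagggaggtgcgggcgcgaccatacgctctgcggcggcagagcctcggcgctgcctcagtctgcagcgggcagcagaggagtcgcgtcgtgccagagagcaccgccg

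The windows differ in base composition and motifs. The Rtn1 window holds 43 CG dinucleotides and 3 GC boxes, all on the complementary strand, and the Syp window 18 CG dinucleotides and 2 GC boxes. The Elavl3 window has 29 CG dinucleotides and an E-box, a TATA box, a CCAAT box and 2 GC boxes, whereas the Cntn2 window, with 13 CG dinucleotides, holds none of the motifs. The letters of the REST element were found in the Syn1 window alone among the 38 member windows (2.63%), against 0.371% of all 32851 windows of this length. GC boxes were in 23 member windows (60.5%) against 35.7% of all windows, CCAAT boxes in 19 of the 38 against 37.4%, E-boxes in 8 (21.1%) against 16.3%, and TATA boxes in 4 (10.5%) against 13.6%. The median number of CG dinucleotides was 21 per member window and 7 over all windows. These are matches of letters and say nothing of whether a factor binds there.

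Nestin, the intermediate filament of neural progenitors, rose after depletion of Hira and of Ubn2. Nes (chr3:87971078-87980451 on the plus strand) lay at 15.8 and 16.1 CPM in control, 42.5 and 42.2 in Hira_KD, 18.6 and 15.9 in Ubn1_KD and 31.9 and 27.5 in Ubn2_KD libraries. All 4 Hira_KD and Ubn2_KD libraries lay above all control and Ubn1_KD libraries, which overlapped each other. The log2 fold change was 1.39 ± 0.11 (SE; adjusted p = 8.07e-09) after Hira and 0.90 ± 0.12 (SE; adjusted p = 3.8e-06) after Ubn2 depletion. Set side by side, Hira_KD libraries were higher than Ubn2_KD libraries by 0.52 (adjusted p = 0.00108), a fold of 1.43 that does not reach the 1.5-fold limit.

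Zic2, a zinc finger factor of the early neural plate, was the member that rose in all 3 depletions. Its level was 17.1 and 25.1 CPM in control, 33.8 and 47.6 in Hira_KD, 46.8 and 42.1 in Ubn1_KD and 49.7 and 47.9 in Ubn2_KD libraries. The 6 depleted libraries lay above both control libraries, with log2 fold changes of 0.91 ± 0.15 (SE; adjusted p = 9.88e-05) after Hira, 1.06 ± 0.13 (SE; adjusted p = 1.97e-06) after Ubn1 and 1.19 ± 0.13 (SE; adjusted p = 2.64e-07) after Ubn2 depletion. The Hira_KD and Ubn2_KD libraries did not overlap, but the log2 fold change of Hira_KD over Ubn2_KD was -0.27 (adjusted p = 0.111) and was not called. Its relative Zic1, also a zinc finger factor, had between 1 and 18 counts and was tested against control after Hira depletion only, without a call.

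The SOX factors behaved unlike each other. Sox3, a SOXB1 factor that keeps neural progenitors dividing, lay at 2.58 and 2.73 CPM in control, 5.18 and 5.36 in Hira_KD, 1.92 and 1.77 in Ubn1_KD and 3.82 and 2.35 in Ubn2_KD libraries. It rose after Hira depletion by 0.96 ± 0.24 (SE; adjusted p = 0.0033) on the log2 scale, and its Ubn2_KD libraries straddled the control level. The direct comparison called Hira_KD above Ubn1_KD by 1.52 (adjusted p = 0.00013) and above Ubn2_KD by 0.77 (adjusted p = 0.0287), but the latter call was lost with DESeq2 and, at 0.47, without Ubn2_KD replicate 2, and its value reached 1.17 without Ubn2_KD replicate 1. Sox1, the other SOXB1 member, lay at 3.31 and 4.59 CPM in control, 3.27 and 3.98 in Hira_KD, 4.2 and 5.03 in Ubn1_KD and 6.3 and 4.95 in Ubn2_KD libraries, and no depletion was called against control. Hira_KD was called under Ubn2_KD for Sox1, at -0.64 (adjusted p = 0.0445), a call that was lost without Hira_KD replicate 1 or Ubn2_KD replicate 1 and with DESeq2. Sox11, a SOXC factor of newly born neurons, lay at 19.8 and 22.0 CPM in control, 21.7 and 27.6 in Hira_KD, 13.8 and 16.4 in Ubn1_KD and 19.4 and 15.2 in Ubn2_KD libraries. Here too no depletion was called against control, and Hira_KD exceeded Ubn1_KD by 0.71 (adjusted p = 0.000723), which was not kept without Hira_KD replicate 2 or Ubn1_KD replicate 1.

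Neurod1 encodes a basic helix-loop-helix factor that drives neuronal differentiation, and it moved in opposite directions after depletion of Hira and of Ubn1. It lay at 5.21 and 7.83 CPM in control, 10.2 and 11.3 in Hira_KD, 2.69 and 4.15 in Ubn1_KD and 9.01 and 7.14 in Ubn2_KD libraries. Both Hira_KD libraries were above and both Ubn1_KD libraries under the control range, with log2 fold changes of 0.68 ± 0.19 (SE; adjusted p = 0.00826) and -0.94 ± 0.24 (SE; adjusted p = 0.0129). Both calls against control rest on few libraries. The first was lost at 0.43 without Control replicate 1, and the second was lost at -0.61 without Control replicate 2, without Ubn1_KD replicate 1 and with DESeq2. Without the controls, Hira_KD exceeded Ubn1_KD by 1.65 ± 0.22 (SE; adjusted p = 3.44e-06) and Ubn2_KD exceeded Ubn1_KD by 1.23 ± 0.24 (SE; adjusted p = 0.0017), and both of these held in every alternative tried. Reads at Neurod1 overlap exons of Cerkl and of the antisense RNA Gm26755, with which they can be mixed.

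The Notch ligands Dll1 and Dll3, through which progenitors hold back their neighbours, were lower after Ubn1 or Ubn2 than after Hira depletion. Dll1 lay at 4.67 and 4.18 CPM in control, 6.42 and 5.83 in Hira_KD, 2.1 and 1.88 in Ubn1_KD and 2.67 and 1.58 in Ubn2_KD libraries. The 4 Ubn1_KD and Ubn2_KD libraries were under both control libraries and the Hira_KD libraries above them, and the log2 fold change of Dll1 was -1.15 ± 0.26 (SE; adjusted p = 0.00534) after Ubn1 and -1.04 ± 0.27 (SE; adjusted p = 0.00396) after Ubn2 depletion. Its Hira value, 0.46 (adjusted p = 0.0906), was not called against control, while Hira_KD exceeded Ubn1_KD by 1.64 (adjusted p = 3.5e-05) and Ubn2_KD by 1.53 (adjusted p = 0.000476). The Ubn1 call was lost without Control replicate 1 and the Ubn2 call without Ubn2_KD replicate 2, and an antisense RNA, A930024N18Rik, overlaps Dll1. Dll3 lay at 5.36 and 4.71 CPM in control, 8.11 and 5.69 in Hira_KD, 4.06 and 4.07 in Ubn1_KD and 2.58 and 4.54 in Ubn2_KD libraries. No depletion was called against control for Dll3, and Hira_KD exceeded Ubn2_KD by 0.99 (adjusted p = 0.0103) and Ubn1_KD by 0.79 (adjusted p = 0.0125). These values fell to 0.62 without Ubn2_KD replicate 1 and 0.49 without Hira_KD replicate 1, where they were no longer called, and the second was also lost with DESeq2.

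Among the neuron genes that rose after Hira depletion, Nefl and Nefm had the highest log2 fold changes. Nefl and Nefm encode the light and medium neurofilament chains of axons and lie next to each other on chromosome 14, Nefl at chr14:68083863-68089095 on the plus strand and Nefm at chr14:68082590-68124846 on the minus strand. Nefl lay at 12.3 and 13.9 CPM in control, 51.3 and 47.9 in Hira_KD, 9.12 and 11.1 in Ubn1_KD and 7.03 and 7.7 in Ubn2_KD libraries. Nefm lay at 9.79 and 11.0 CPM in control, 35.8 and 35.6 in Hira_KD, 6.93 and 8.45 in Ubn1_KD and 5.15 and 5.76 in Ubn2_KD libraries. For both genes the Hira_KD libraries were above and the Ubn2_KD libraries under all other libraries, with the control and Ubn1_KD libraries between them.

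Nefl rose after Hira depletion by 1.90 ± 0.11 (SE; adjusted p = 1.83e-10), a 3.72-fold change, and fell by 0.84 ± 0.16 (SE; adjusted p = 0.000249) after Ubn2 depletion. Nefm rose by 1.76 ± 0.12 (SE; adjusted p = 1.68e-09) and fell by 0.94 ± 0.18 (SE; adjusted p = 0.000225). The Ubn1 values, -0.38 (adjusted p = 0.147) for Nefl and -0.44 (adjusted p = 0.127) for Nefm, were not called although both Ubn1_KD libraries were under both controls. Compared directly, Hira_KD exceeded Ubn2_KD by 6.78-fold for Nefl and 6.59-fold for Nefm. Ubn2_KD and Ubn1_KD were not called different, at -0.46 (adjusted p = 0.09) and -0.50 (adjusted p = 0.0948). The annotated exons of the genes share 1108 bases on opposite strands (chr14:68083863-68084970), out of 3380 exon bases of Nefl and 5782 of Nefm, and since the counting is not stated to use strand their reads cannot be fully told apart.

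Nefh, the heavy neurofilament chain, shared the rise after Hira depletion and not the fall after Ubn2 depletion. It lay at 22.1 and 26.6 CPM in control, 58.2 and 68.6 in Hira_KD, 27.4 and 23.4 in Ubn1_KD and 26.9 and 31.1 in Ubn2_KD libraries. Both Hira_KD libraries were above all others, with a log2 fold change of 1.35 ± 0.11 (SE; adjusted p = 1.15e-08), while the Ubn2 value was 0.24 (adjusted p = 0.111) and not called. Ina, which encodes alpha-internexin, an intermediate filament that precedes the neurofilaments in young neurons, lay at 26.4 and 29.6 CPM in control, 31.8 and 34.4 in Hira_KD, 23.8 and 25.0 in Ubn1_KD and 30.1 and 31.8 in Ubn2_KD libraries. Its log2 fold change after Hira depletion was 0.22 (adjusted p = 0.117) and no comparison called it. An exon of Nt5c2 on the opposite strand overlaps Ina, so their reads can be mixed.

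**Figure D3:**
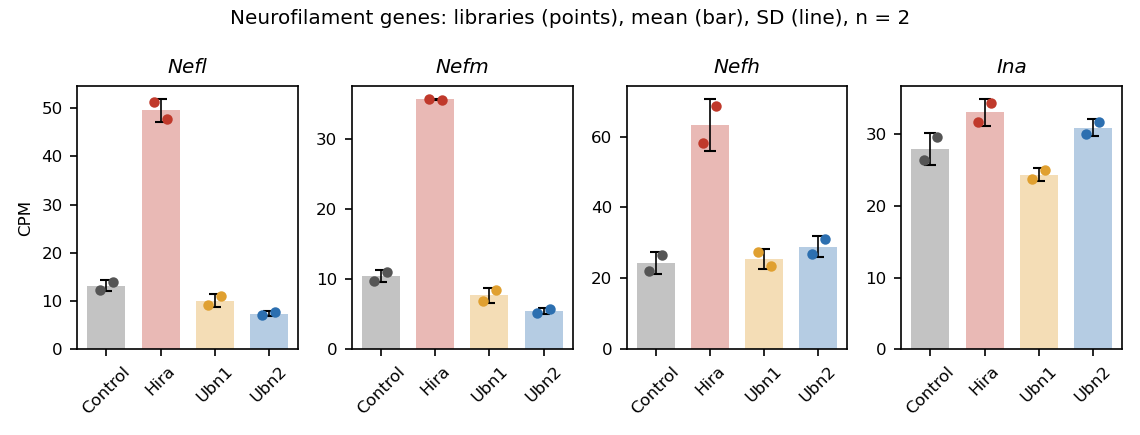
CPM of the 4 neurofilament-type genes in control, Hira_KD, Ubn1_KD and Ubn2_KD libraries (points, 1 per library), with the mean (bar, from 0) and SD (line) of n = 2. The red bars of Nefl, Nefm and Nefh exceed all others, the blue bars of Nefl and Nefm are the lowest, and the bars of Ina differ little.

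Tubulin and microtubule genes split by depletion. Tubb3, the class III beta-tubulin that is widely used to mark neurons, lay at 86.5 and 91.4 CPM in control, 158 and 169 in Hira_KD, 126 and 148 in Ubn1_KD and 77.0 and 86.6 in Ubn2_KD libraries. The Hira_KD and Ubn1_KD libraries were above all others, and Tubb3 rose by 0.86 ± 0.08 (SE; adjusted p = 5.6e-08) after Hira and 0.62 ± 0.10 (SE; adjusted p = 5.92e-05) after Ubn1 depletion, the latter call being lost without Ubn1_KD replicate 2. The Ubn2_KD libraries overlapped with control, at -0.12 (adjusted p = 0.215), and were lower than Ubn1_KD libraries, with a log2 fold change of -0.75 (adjusted p = 5.66e-05). Map2, the microtubule protein of dendrites, lay at 7.21 and 5.94 CPM in control, 13.1 and 14.8 in Hira_KD, 5.61 and 5.11 in Ubn1_KD and 5.79 and 4.54 in Ubn2_KD libraries. It rose after Hira depletion by 1.07 ± 0.17 (SE; adjusted p = 4.39e-05), and the other depleted libraries were under the controls without a call. Mapt, which encodes tau, stayed between 22.2 and 27.1 CPM in all 8 libraries and was called nowhere.

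The stathmins destabilise microtubules in growing neurites, and Stmn2 and Stmn3 fell after Ubn2 depletion while Stmn4 had too few counts for a test. Stmn2, the member with the highest CPM, lay at 289.5 and 284 CPM in control, 323 and 316 in Hira_KD, 272 and 271 in Ubn1_KD and 179 and 187 in Ubn2_KD libraries. The Ubn2_KD libraries were under all 6 others, and Stmn2 fell by 0.65 ± 0.07 (SE; adjusted p = 2.4e-07), whereas the Hira value was 0.14 (adjusted p = 0.143). Stmn3 lay at 12.0 and 13.2 CPM in control, 13.9 and 14.9 in Hira_KD, 10.5 and 10.0 in Ubn1_KD and 5.98 and 8.67 in Ubn2_KD libraries. After Ubn2 depletion it fell by 0.79 ± 0.18 (SE; adjusted p = 0.00115), a call that was lost at -0.54 without Ubn2_KD replicate 1. Hira_KD exceeded Ubn2_KD by 0.81 (adjusted p = 2.46e-06) for Stmn2 and 0.99 (adjusted p = 0.000653) for Stmn3.

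The RNA-binding proteins of the ELAV family, which stabilise neuronal transcripts, moved in separate depletions. Elavl3 lay at 31.1 and 29.6 CPM in control, 27.2 and 27.5 in Hira_KD, 23.1 and 29.9 in Ubn1_KD and 11.1 and 13.4 in Ubn2_KD libraries. The Ubn2_KD libraries were under all others, and Elavl3 fell by 1.31 ± 0.12 (SE; adjusted p = 5.4e-08) after Ubn2 depletion and lay at -0.17 (adjusted p = 0.228) after Hira depletion. Part of its exons is shared with Gm49318 on the same strand. Elavl4 lay at 1.36 and 1.73 CPM in control, 0.333 and 0.569 in Hira_KD, 1.6 and 1.19 in Ubn1_KD and 1.24 and 1.48 in Ubn2_KD libraries. It was the only member called lower after Hira depletion, where it fell by 1.85 ± 0.46 (SE; adjusted p = 0.00361). Hira_KD was also under Ubn2_KD and Ubn1_KD, with log2 fold changes of -1.62 (adjusted p = 0.0142) and -1.66 (adjusted p = 0.0131). At so low a level these calls were fragile. The first was lost without Control replicate 2, and the direct calls were lost without Hira_KD replicate 1, without 1 library of the other depletion (Ubn2_KD replicate 2 or Ubn1_KD replicate 1) and with DESeq2.

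Of the genes of the growth cone and neuronal endoplasmic reticulum, Rtn1 showed the opposite pattern most plainly. Rtn1, a reticulon of the neuronal endoplasmic reticulum (chr12:72211752-72409054 on the minus strand), lay at 7.69 and 10.5 CPM in control, 19.9 and 20.1 in Hira_KD, 8.8 and 9.25 in Ubn1_KD and 3.31 and 3.52 in Ubn2_KD libraries. The Hira_KD libraries were above and the Ubn2_KD libraries under all others, with the control and Ubn1_KD libraries overlapping. Rtn1 rose by 1.10 ± 0.15 (SE; adjusted p = 1.06e-05) and fell by 1.43 ± 0.21 (SE; adjusted p = 1.31e-05), and Hira_KD exceeded Ubn2_KD 5.89-fold. Crmp1, a mediator of growth cone collapse, lay at 42.7 and 40.8 CPM in control, 68.8 and 73.2 in Hira_KD, 34.0 and 36.8 in Ubn1_KD and 39.5 and 39.2 in Ubn2_KD libraries. It rose after Hira depletion by 0.75 ± 0.09 (SE; adjusted p = 1.33e-06) and lay at -0.09 (adjusted p = 0.49) after Ubn2 depletion. Gap43, a growth cone protein, lay at 8.13 and 13.4 CPM in control, 9.87 and 13.1 in Hira_KD, 15.1 and 13.2 in Ubn1_KD and 16.9 and 16.0 in Ubn2_KD libraries. It was called higher after Ubn2 depletion by 0.59 ± 0.17 (SE; adjusted p = 0.0101), but the control libraries differed from each other, and the value was 0.29 without Control replicate 1 and 1.02 without Control replicate 2. The call was also lost without Ubn2_KD replicate 1 and with no filter on low counts.

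The synaptic genes Syp, Syt1 and Snap25 were weakly expressed, and Syp moved both ways. Syp encodes the vesicle protein synaptophysin (chrX:7638471-7653256 on the plus strand) and lay at 2.48 and 2.99 CPM in control, 4.36 and 4.6 in Hira_KD, 2.83 and 1.88 in Ubn1_KD and 1.01 and 1.32 in Ubn2_KD libraries. Both Hira_KD libraries were above and both Ubn2_KD libraries under all others. After Ubn2 depletion it fell by 1.24 ± 0.32 (SE; adjusted p = 0.00406). Its rise after Hira depletion, 0.68 ± 0.25 (SE; adjusted p = 0.0359), was lost when any of the 4 libraries was left out and with DESeq2, while the direct difference between Hira_KD and Ubn2_KD, 1.95 ± 0.29 (SE; adjusted p = 0.000141), held in every alternative. Hira_KD was also above Ubn1_KD by 0.94 (adjusted p = 0.013), a call lost without Ubn1_KD replicate 2 and with DESeq2. An antisense RNA, Gm14703, overlaps Syp.

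Syt1, the calcium sensor of vesicle release, lay at 1.36 and 1.13 CPM in control, 1.64 and 2.13 in Hira_KD, 1.5 and 1.19 in Ubn1_KD and 0.781 and 0.561 in Ubn2_KD libraries. No depletion was called against control, at 0.58 (adjusted p = 0.218) for Hira and -0.87 (adjusted p = 0.124) for Ubn2. Hira_KD exceeded Ubn2_KD by 1.47 (adjusted p = 0.011), which was lost without Hira_KD replicate 2 or Ubn2_KD replicate 2 and with DESeq2. Snap25, a SNARE protein of vesicle fusion, had between 1 and 25 counts and lay at 0.633 and 0.283 CPM in control, 0.757 and 0.712 in Hira_KD, 0.41 and 0.0384 in Ubn1_KD and 0.138 and 0.255 in Ubn2_KD libraries. It was called in the comparison of Hira_KD with Ubn2_KD, by 1.90 (adjusted p = 0.0244), and lost that call when any of the 4 libraries was left out, with DESeq2 and in a joint fit of all libraries. It passed the filter on low counts only through the Hira_KD libraries, where it was high, so this call is no independent sign of a difference. Syn1, a vesicle phosphoprotein whose window holds the REST element letters printed above, lay between 11.9 and 18.1 CPM and was called nowhere. Its Ubn1 value against control was 0.48 (adjusted p = 0.0346) and under the fold limit. An exon of Araf on the opposite strand overlaps Syn1, so their reads can be mixed.

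Gad1, the enzyme that makes the transmitter GABA, was the other member that moved in opposite directions after Hira and Ubn1 depletion. It lay at 3.6 and 3.49 CPM in control, 8.11 and 7.5 in Hira_KD, 1.73 and 1.73 in Ubn1_KD and 1.84 and 3.42 in Ubn2_KD libraries. The Hira_KD libraries were above and the Ubn1_KD libraries under both controls, and Gad1 rose by 1.13 ± 0.20 (SE; adjusted p = 0.000213) and fell by 1.03 ± 0.28 (SE; adjusted p = 0.0215). The Ubn1 call was lost without either control library, and DESeq2 gave Gad1 no adjusted p there and so no call. Hira_KD exceeded Ubn1_KD by 2.18 ± 0.25 (SE; adjusted p = 4.04e-07) and Ubn2_KD by 1.59 ± 0.26 (SE; adjusted p = 0.000301).

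The adhesion molecules of axons, all of the immunoglobulin family, did not move as a group. Nrcam lay at 1.9 and 1.54 CPM in control, 5.96 and 4.36 in Hira_KD, 0.958 and 1.5 in Ubn1_KD and 2.21 and 2.14 in Ubn2_KD libraries. It rose after Hira depletion by 1.60 ± 0.27 (SE; adjusted p = 0.00011), and Hira_KD was above every other library. Cntn2, which encodes the axonal protein contactin 2, lay at 12.3 and 15.0 CPM in control, 16.0 and 14.1 in Hira_KD, 11.6 and 12.3 in Ubn1_KD and 4.69 and 5.3 in Ubn2_KD libraries. The Ubn2_KD libraries were under all 6 others and Cntn2 fell by 1.46 ± 0.17 (SE; adjusted p = 1.13e-06), without a call after Hira depletion. L1cam lay at 7.21 and 7.67 CPM in control, 7.93 and 6.4 in Hira_KD, 7.8 and 7.91 in Ubn1_KD and 4.78 and 4.33 in Ubn2_KD libraries. After Ubn2 depletion it fell by 0.71 ± 0.19 (SE; adjusted p = 0.00557). Ubn2_KD was also under Ubn1_KD, at -0.78 (adjusted p = 0.0114), and under Hira_KD, where the log2 fold change of Hira_KD over Ubn2_KD was 0.67 (adjusted p = 0.0199). The first direct call was lost without Ubn2_KD replicate 2, and the second without Hira_KD replicate 1 or Ubn2_KD replicate 2 and with DESeq2, and 12 exons of Arhgap4 overlap L1cam on its strand. Ncam1 lay at 18.6 and 22.7 CPM in control, 16.5 and 20.9 in Hira_KD, 31.6 and 27.6 in Ubn1_KD and 26.8 and 21.8 in Ubn2_KD libraries. It was called nowhere against control, though its Ubn1 value was 0.51 (adjusted p = 0.0101) and under the fold limit, and Hira_KD was under Ubn1_KD, at -0.66 (adjusted p = 0.000717). That call was lost without Hira_KD replicate 1 or Ubn1_KD replicate 1, and the antisense RNA Gm11149 overlaps Ncam1.

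To ask which members differed between depletions without passing through the shared control libraries, the depletions were compared directly. Between Hira_KD and Ubn2_KD, 20 of 31 tested members were higher and 2 lower in Hira_KD, against 12.0% of all genes called higher and 5.61% called lower. Hira_KD was higher in 17 and lower in 1 of the 23 neuron genes tested (median log2 difference 1.13) and higher in 3 and lower in 1 of the 8 progenitor genes (median 0.51). Without Snap25, the counts were 19 of 30 members and 16 of 22 neuron genes higher, with a neuron median of 1.07. The median of all genes was 0.01. Nefl, Nefm and Rtn1 led, at 2.76 ± 0.12, 2.72 ± 0.13 and 2.56 ± 0.16 (SE).

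**Figure D4:**
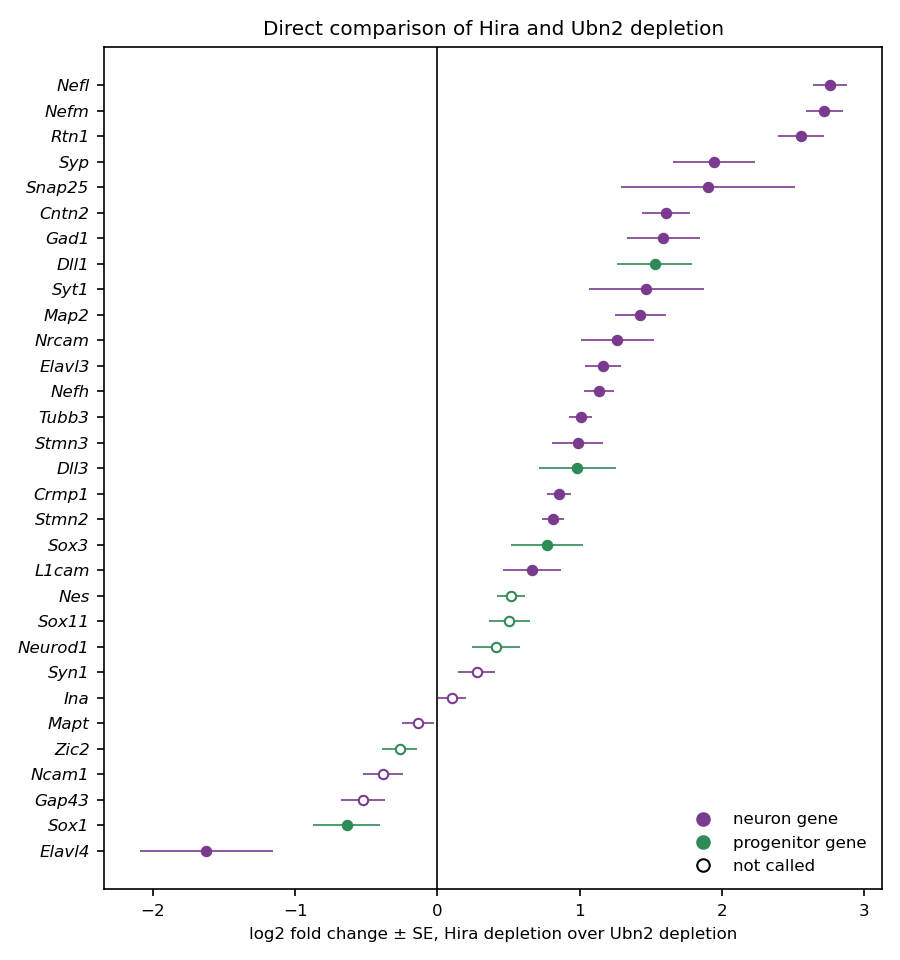
Log2 fold change of Hira_KD over Ubn2_KD (horizontal axis, ± SE) for the 31 members tested, in order of size, with neuron genes in purple and progenitor genes in green. Filled points were called, and 17 neuron genes lie to the right of 0 as filled points while Elavl4 is the filled neuron gene on the left.

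The members with values of opposite sign after Hira and Ubn2 depletion were then named from the values against control and from the direct comparison. The 2 values against control share the control libraries, so the direct comparison is given as the test of the difference. Nefl, Nefm, Syp and Rtn1 were called higher after Hira and lower after Ubn2 depletion, and all 4 were called in the direct comparison. Over all genes tested in both depletions, 91 of 18009 (0.505%) were called in opposite directions. The Hira call of Syp is the one that was lost when any library was left out and with DESeq2. Their values after Hira and Ubn2 depletion were 1.90 and -0.84 for Nefl, 1.76 and -0.94 for Nefm, 0.68 and -1.24 for Syp, and 1.10 and -1.43 for Rtn1. A further 11 members were called in the direct comparison and had values of opposite sign against control, at least 1 of which was not called. Together with the 4 above they make 15 of 30 members, against 10.7% of all genes with values of opposite sign and a direct call. The 11 were the neuron genes Tubb3, Stmn2, Stmn3, Map2, Crmp1, Syt1, Cntn2 and Gad1 and the progenitor genes Sox1, Dll1 and Dll3. Nes and Zic2 were called higher in both depletions.

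Hira_KD and Ubn1_KD differed in 17 of 31 tested members, of which 15 were higher and 2 lower in Hira_KD, against 9.52% and 3.16% of all genes. All 6 called progenitor genes, Nes, Sox3, Sox11, Neurod1, Dll1 and Dll3, were higher in Hira_KD. Of the neuron genes 9 were higher, Nefl at 2.30 ± 0.13, Nefm at 2.22 ± 0.14, Gad1 at 2.18 ± 0.25 and Nrcam at 2.07 ± 0.30 (SE) leading, and Elavl4 and Ncam1 were lower. Neurod1 and Gad1 were called higher after Hira and lower after Ubn1 depletion, as were 20 of all 18195 genes (0.11%). However, both Ubn1 calls and the Hira call of Neurod1 were lost without single libraries, and neither Ubn1 call was made with DESeq2. Zic2 and Tubb3 were called higher after both. Tubb3 was not called between them, at 0.26 (adjusted p = 0.0571).

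Ubn2_KD and Ubn1_KD, the depletions of related subunits, differed in 7 of 30 members, of which 2 were higher and 5 lower in Ubn2_KD, against 4.61% and 4.09% of all genes. Nes and Neurod1 were higher in Ubn2_KD, by 0.78 ± 0.13 and 1.23 ± 0.24 (SE). Tubb3, Elavl3, L1cam, Cntn2 and Rtn1 were lower, with log2 fold changes of -0.75, -1.12, -0.78, -1.26 and -1.40. Zic2 was called higher and Dll1 lower in both, and the log2 fold change of Zic2 between them was 0.13 (adjusted p = 0.392), without a call. Hira RNA fell further in its own depletion than Ubn1 or Ubn2 RNA did, by the values given above, and the part of the depth of depletion in the size of these differences was not tested.

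Other neural genes were read from lists that hold no member. Of 35 other progenitor and patterning genes, 9 of 24 tested rose and 1 fell after Hira depletion, 7 of 26 rose and 2 fell after Ubn2 depletion, and 2 of 23 rose and 1 fell after Ubn1 depletion. Of 74 other neuron genes, 8 of 52 rose and 2 fell after Hira depletion, 6 of 49 rose and 12 fell after Ubn2 depletion, and 1 of 49 fell after Ubn1 depletion, where all genes stood at the shares given above. The medians of the other neuron genes were 0.38, -0.35 and -0.01 after Hira, Ubn2 and Ubn1 depletion. Those of the other progenitor genes were 0.39, 0.30 and 0.05. Between Hira_KD and Ubn2_KD, 20 of 51 other neuron genes were higher and 2 lower in Hira_KD, with a median of 0.53. Of 26 other progenitor genes 4 were higher and 1 lower in Hira_KD, with a median of 0.10. Over all genes 12.0% were called higher and 5.61% lower in that comparison. Some genes called higher passed the filter on low counts only through the depleted libraries, where they were high. These include En1 and Scg5 after Hira depletion and En1, Pax7 and Isl1 after Ubn2 depletion. Scg5 passed in the same way between Hira_KD and Ubn2_KD. Such calls are no independent sign of a rise.

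**Figure D5:**
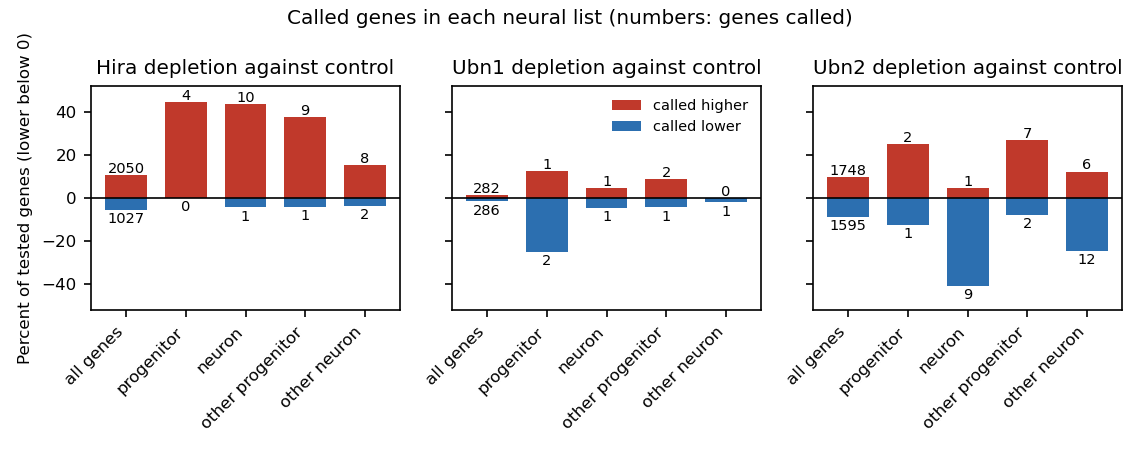
Percent of tested genes called higher (red, above 0) and lower (blue, under 0) against control in all genes, the progenitor and neuron members and the other progenitor and neuron genes, for each depletion, with the number of genes at each bar. The neuron bar points up after Hira depletion, with 10 genes, and down after Ubn2 depletion, with 9.

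Single genes of these lists are named by the smallest adjusted p in each direction, so they cannot show how a list moved as a whole. Some moved as the members did and others did not. Kif1a, a motor that carries synaptic vesicle precursors, lay at 19.3 and 17.1 CPM in control, 77.4 and 60.0 in Hira_KD, 20.6 and 24.0 in Ubn1_KD and 7.63 and 10.7 in Ubn2_KD libraries. It rose by 1.91 (adjusted p = 3.27e-10) and fell by 0.99 (adjusted p = 3.93e-05). Prom1, a membrane protein of neural stem cells, lay at 4.96 and 6.76 CPM in control, 15.2 and 13.6 in Hira_KD, 3.42 and 3.42 in Ubn1_KD and 2.48 and 2.4 in Ubn2_KD libraries, and it rose by 1.27 (adjusted p = 1.05e-05) after Hira and fell by 1.28 (adjusted p = 0.000225) after Ubn2 depletion. Its fall after Ubn1 depletion, -0.79 (adjusted p = 0.0303), was lost without Control replicate 2 and with DESeq2. Ebf1, a helix-loop-helix factor of differentiating neurons, went the other way, from 5.06 and 5.94 CPM in control to 1.7 and 1.99 in Hira_KD and 17.7 and 14.0 in Ubn2_KD libraries, with values of -1.61 and 1.51.

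After Hira depletion the filament Vim, the cadherin Cdh2, the collapsin response mediator Dpysl3 and the ubiquitin hydrolase Uchl1 rose as well, by 0.88, 1.32, 1.26 and 0.92, while the POU factor Pou3f1 fell by 0.91, a call lost without Control replicate 2. Cdh2 was also called higher after Ubn2 depletion, by 0.89, which fell to 0.52 and lost its call without Ubn2_KD replicate 1. The neuropeptide precursor Vgf and the factors Otx2 and Sox21 rose in both depletions. Their values were 2.40, 0.67 and 1.09 after Hira and 2.35, 0.97 and 1.65 after Ubn2 depletion. The factor En1, at 3.52 and 3.36, had only 2 and 6 counts in control libraries. It passed the filter on low counts only through the depleted libraries, where it was high, so its calls are no independent sign of a rise. The tubulin Tubb2a rose by 0.66 after Ubn2 depletion. The collapsin response mediator Dpysl5 rose by 1.03 after Hira and fell by 1.41 after Ubn2 depletion. The glutamate carriers Slc17a7 and Slc1a3 and the adhesion molecule Nlgn2 fell after Ubn2 depletion, with log2 fold changes of -1.44, -1.51 and -0.74, and Slc17a7 also fell by 0.62 after Hira depletion. Otx2 and Sox21 rose after Ubn1 depletion by 0.73 and 1.23, and the RNA-binding protein Celf4 fell by 0.65, a call lost without either control library.

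Markers of other cell types moved in the same libraries as the neural genes. In Ubn2_KD libraries, where 9 neuron genes fell, 6 of 8 tested muscle genes rose and 1 fell, against 9.59% and 8.75% of all genes. The cardiac actin Actc1 led, at 85.3 and 49.7 CPM against 0.0974 and 0.189 CPM in control. Only 4 muscle genes were tested for Ubn1 and 5 for Hira against control. Some, Actc1 among them, thus passed the filter on low counts only through the Ubn2_KD libraries, where they were high. Such calls are no independent sign of a rise. In Hira_KD libraries, where 14 members rose, 3 of 5 tested trophoblast markers rose, against 10.8% of all genes. These were the factor Cdx2, from 0 and 0.22 to 1.12 and 0.759 CPM, and the keratins Krt8 and Krt18. The keratins lay at 56.5 and 48.2 and 37.1 and 28.1 CPM against 25.2 and 22.7 and 13.9 and 12.3 CPM in control. After Ubn2 depletion 2 of 5 tested trophoblast markers fell and 1 rose. Krt8 and Krt18 fell, to 16.6 and 15.2 and 5.24 and 8.67 CPM, the Krt8 call being lost without Ubn2_KD replicate 2 or Control replicate 1, and the factor Gata3 rose from 0 and 0.0629 to 0.598 and 0.663 CPM. Cdx2 and Gata3 likewise passed the filter only through the depleted libraries, where they were high. The part of these cells or genes in the neural values was not tested.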

How the data were processed

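RNA was measured in 8 libraries of mouse E14 ESCs, 2 per condition. Per the labels and the study's methods, the authors used Trim Galore for trimming, STAR for alignment to GRCm38 and featureCounts for counting per gene. Versions, strand setting and treatment of reads with several matches are not given in the sources used here. They deposited raw counts per gene in 3 tables of 55418 genes, each with the same control libraries, whose counts differed in 0 values and were used once. No column was left unused (0).

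Pairs of conditions were fitted with edgeR 4.0.16 (limma 3.58.1, R 4.3.3), with TMM, filterByExpr, quasi-likelihood tests and Benjamini-Hochberg adjustment over all genes tested. Calls needed an adjusted p under 0.05 and a fold over 1.5, the limits of the study. The SE is the log2 fold change divided by the square root of F. CPM used TMM factors of all 8 libraries. Replicate libraries differed by more than counting error (chi-square per degree of freedom from 6.3 to 14.2), so none was a repeated deposit. The smallest p of an exact permutation test of 2 against 2 libraries is too large for a call, so none was used.

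Members and lists were chosen with earlier results of these data known, so counts and medians of a list are descriptions. Every called member is named with its CPM in all libraries, and of the other neural lists up to 3 genes per direction and depletion with the smallest adjusted p. Further calls of these genes against control in other depletions, and the marker and REST genes named, were chosen after their values were seen. Positions are from GENCODE M21, in which 55303 symbols matched 1 gene and 115 several.

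Alternatives were the Wald test of DESeq2 1.42.0 (the tool of the study), edgeR with the size factors of DESeq2, leaving out the filter on low counts, a stricter filter of 10 counts per library, a joint fit of all 8 libraries, a replicate block, calls by adjusted p alone, and each library left out. On simulated counts modelled on Hira against control, 91.0% of 199 changed genes were recovered among 19002, with 8 unchanged genes called. DESeq2 recovered 83.5% and the block 91.5%. Recovery was not split by fold change or CPM, so recovery at the values of single members was not tested. Intervals and limits from 3 counts cover counting error only.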

Additional observations from a re-analysis of the deposited data

How the results depend on the processing

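No called member value given in the text changed sign under any alternative tried. With DESeq2, members called lower became 1 for Ubn1 against control, 0 for Hira_KD against Ubn2_KD and 1 for Hira_KD against Ubn1_KD, and calls by adjusted p alone gave 4 members higher for Ubn1 against control and 4 lower for Hira_KD against Ubn2_KD. The progenitor median, which rests on 8 or 9 genes, was -0.51 for Ubn1 against control both with DESeq2 and with no filter, -0.27 and -0.29 for Ubn2 against control, and 1.23 and 1.31 for Hira_KD against Ubn1_KD, since more weakly expressed members enter it. The neuron median of Hira against control was 0.44 with at least 10 counts in every library.

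Leaving out each library in turn moved the members called for Hira against control between 12 and 14 higher and 0 and 1 lower, for Ubn1 between 2 and 4 higher and 1 and 4 lower, and for Ubn2 between 2 and 5 higher and 9 and 11 lower. Between Hira_KD and Ubn2_KD the ranges were 17 to 21 higher and 0 to 3 lower, and between Hira_KD and Ubn1_KD 14 to 15 and 0 to 2. The neuron median then ranged from 0.38 to 0.68 for Hira against control, -0.64 to -0.39 for Ubn2 against control, 1.02 to 1.24 for Hira_KD against Ubn2_KD and -0.46 to -0.37 for Ubn2_KD against Ubn1_KD. The progenitor median ranged from 0.54 to 0.75 for Hira against control, 1.09 to 1.32 for Hira_KD against Ubn1_KD and 0.13 to 0.44 for Ubn2_KD against Ubn1_KD. The filter on low counts was set anew for each set of libraries, so the genes in a median can change too. The medians with all libraries, 0.46 for Hira against control and 1.04 for Hira_KD against Ubn1_KD, lie outside their ranges. The libraries behind single lost calls are named with the genes.

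The libraries of different conditions share replicate numbers, and nothing states that equal numbers were made together. Over 19264 genes, libraries with the same number deviated from their group means with correlations between -0.0529 and 0.0664, so the numbers were not taken as pairs. With the replicate block, members called lower in Hira_KD against Ubn2_KD became 1, since Sox1 lost its call, and no other called member lost its call. With 2 libraries per condition, small changes of weakly expressed members such as Elavl4, Syp, Syt1 and Snap25 were at the limit of what this depth shows.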

Other observations

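The genes of the REST repressor, which holds neuron genes down in other cells, were read apart from the members. The 9 genes of the complex were Rest, Rcor1, Rcor2, Sin3a, Hdac1, Hdac2, Kdm1a, Ehmt2 and Ctdsp1. Of these, 1 was called against control, higher after Ubn2 depletion, where 9.59% of all genes were called higher. Called or not, 8 of the 9 had values under 0 after Hira depletion, with a median log2 fold change of -0.18. After Ubn1 depletion 6 of the 9 were under 0, and likewise 6 after Ubn2 depletion, with medians of -0.05 and -0.12. Rest lay at 233 and 263 CPM in control, 178 and 216 in Hira_KD, 259 and 229.7 in Ubn1_KD and 281 and 233 in Ubn2_KD libraries. Its log2 fold change after Hira depletion was -0.35 (adjusted p = 0.00361), under the fold limit of a call. The value ranged from -0.5 to -0.22 as single libraries were left out, the latter without Hira_KD replicate 1. The corepressor Rcor1 lay at 45.9 and 44.4 CPM in control, 32.5 and 31.0 in Hira_KD, 54.1 and 51.1 in Ubn1_KD and 52.1 and 48.4 in Ubn2_KD libraries, with a Hira value of -0.52 (adjusted p = 0.00024), also under the fold limit. It was called lower in Hira_KD than in Ubn2_KD, at -0.65 (adjusted p = 8.56e-05), and than in Ubn1_KD libraries, at -0.72 (adjusted p = 2.06e-05). Ctdsp1, a small phosphatase recruited by REST, was the gene called against control, at 33.5 and 36.7 CPM in control and 57.9 and 51.0 CPM in Ubn2_KD libraries, and rose by 0.63 (adjusted p = 2.08e-05), a call lost without Ubn2_KD replicate 1 or Control replicate 1.

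Glia and neural crest, the other cell types of neural origin, were read from their markers. The 11 glia markers summed to 29.4 to 31.2 CPM in control, 34.8 to 42.0 in Hira_KD, 25.7 to 30.4 in Ubn1_KD and 21.4 to 22.6 CPM in Ubn2_KD libraries, with 2 of 8 tested called higher after Hira depletion, 1 lower after Ubn1 and 1 lower after Ubn2 depletion. The defining astrocyte genes Aqp4 and S100b were at or near 0 in all libraries. The 2 called after Hira depletion were the astrocyte filament Gfap, at 4.33 and 3.37 CPM against 2.29 and 2.08 CPM in control, and the myelin gene Mbp, at 3.81 and 4.03 CPM against 1.36 and 1.85 CPM. The Gfap call was lost without Hira_KD replicate 1 or Control replicate 2 and with DESeq2. The 8 neural crest markers summed to 53.0 to 62.6 CPM in control, 58.6 to 81.5 in Hira_KD, 80.0 to 83.8 in Ubn1_KD and 86.0 to 86.5 CPM in Ubn2_KD libraries, with 3 of 7 tested called higher after Ubn2 depletion and 1 after each of the others. Primitive endoderm markers summed to 14.8 to 17.1 CPM in control, 16.1 to 16.4 in Hira_KD, 9.17 to 10.9 in Ubn1_KD and 14.5 to 16.9 CPM in Ubn2_KD libraries, with 2 of 6 tested, Gata6 and Pdgfra, called lower after Ubn1 depletion and Sox17 called higher after Hira depletion. Mesoderm markers summed to 12.7 to 13.7 CPM in control, 17.5 to 21.3 in Hira_KD, 14.4 to 14.7 in Ubn1_KD and 16.4 to 19.9 CPM in Ubn2_KD libraries. Pdgfra is on both the glia and the primitive endoderm list, so its fall after Ubn1 depletion is counted in both. Over all genes tested, 10.8% were called higher and 5.4% lower after Hira depletion. These shares were 1.53% and 1.56% after Ubn1 and 9.59% and 8.75% after Ubn2 depletion. None of the marker counts or sums was tested.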
